A study of Homo sapiens with 12 samples.

Results

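Semaphorins, plexins and neuropilins are the ligands, receptors and co-receptors of a guidance system first described in growing axons, and the account below follows all of them through 2 human acute myeloid leukemia (AML) lines treated with Duocarmycin SA (DSA). Members were the protein-coding genes whose symbol is SEMA, PLXNA, PLXNB, PLXNC or PLXND followed by a digit, together with NRP1 and NRP2. The rule found 31 genes, 20 semaphorins, 9 plexins and 2 neuropilins, among the 60754 gene rows of the files, of which 19868 were protein-coding genes of the better annotation levels. No measured value entered the rule, but the family was chosen with earlier results of these data known. The study itself lists NRP2 among the genes most raised in HL-60. The shares of all genes given below are therefore set beside a chosen family.

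A semaphorin binds through its sema domain to a plexin, and the cytoplasmic part of the plexin then acts on small GTPases of the Rap and R-Ras kind and, in the B plexins, on exchange factors of RhoA, which changes the actin skeleton and the adhesion of the cell. Class 3 semaphorins are secreted and most of them need NRP1 or NRP2 as a co-receptor, the neuropilins also bind vascular endothelial growth factors, and the class 4, 6 and 7 semaphorins are held on the cell membrane. In blood cells the family is known from SEMA4D on lymphocytes, from SEMA7A and PLXNC1 on myeloid cells, and from NRP1 on dendritic cells and subsets of T cells.

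DSA is a minor-groove binder that alkylates adenine. Molm-14 cells (labelled M14) carry an internal tandem duplication of FLT3 and an MLL fusion and have monocytic features, and HL-60 cells are promyelocytic. Each line was left untreated, by its label, or given a low or a high dose for 36 h, with 2 libraries in each of the 6 groups: 11.1 and 100 pM DSA in Molm-14, 112.7 and 500 pM in HL-60. The study's methods speak of vehicle or DSA, so the cells called untreated here may have received vehicle. The lines were grown in different media, so line, medium and dose range cannot be told apart, and a single line stands for each kind of leukemia. The labels do not say whether the 2 libraries of a group came from separate cultures, and the p-values then reflect library-to-library spread alone, which may be technical.

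The 12 libraries held 21177424 to 63927449 expected counts. The share of counts from the mitochondrial chromosome was 1.47 to 1.68% in untreated Molm-14 cells against 2.72 to 4.09% with the high dose, and it was 2.22 to 2.47% in the HL-60 controls and 4.64 to 5.46% at the high dose. The 5 promyelocytic granule genes MPO, ELANE, AZU1, PRTN3 and CTSG summed to 18371 to 18627 library-scaled counts (CPM) in the HL-60 controls and 6594 to 6613 at the high dose, against 3542 to 4235 in the Molm-14 controls and high dose, and all 5 were above 0 in every group. The 5 Molm-14 markers (HOXA9, HOXA10, MEIS1, FLT3 and CSF1R) summed to 660 to 675 CPM in Molm-14 and to 13.4 to 15.0 in HL-60 controls, which sets the lines apart as labelled; at the high dose the sums were 594 to 602 CPM in Molm-14 and 33.8 to 34.8 in HL-60. The leukocyte genes PTPRC, CD33 and ANPEP summed to 227 to 230 CPM in the Molm-14 controls and to 507 to 512 in the HL-60 controls, and to 288 to 303 and 762 to 767 at the high doses. The 4 T cell markers summed to 0.322 to 0.598 CPM in the controls of both lines and to 2.67 to 2.83 in HL-60 at the high dose, where CD3E gave 49 and 86 counts and the other 3 gave 0 to 5. The 3 B cell markers rested on CD79A in every group, with 5.34 to 5.87 CPM in HL-60 at the high dose and MS4A1 at 0. The 4 endothelial and 5 fibroblast markers stayed under 1 CPM in sum in every group. The 4 epithelial markers summed to 35.2 to 40.1 CPM in the Molm-14 controls, mostly KRT18, and to 0.662 to 1.07 CPM in the HL-60 controls, with EPCAM and CDH1 at 0 to 6 counts in every library. The part of these shifts in the results below was not tested, and in bulk RNA fewer cells of a type and less RNA per cell cannot be told apart.

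The promoters of 4 members are shown because their genes carry the contrasts that follow: PLXND1 was the most abundant member by TPM in both lines, PLXNC1 rose in HL-60 alone by the test, and PLXNA1 and SEMA7A moved in opposite directions in the 2 lines. Each run is the 250 bases before the RefSeq start on the gene's strand (GRCh38.p14), free of exons in GENCODE 44, with capitals marking a GC box (GGGCGG or its complement CCGCCC). PLXND1 lies at chr3:129606677-129606926 on the minus strand, PLXNC1 at chr12:94148327-94148576 on the plus strand, PLXNA1 at chr3:126982865-126983114 on the plus strand and SEMA7A at chr15:74433959-74434208 on the minus strand. The PLXNA1 window lies inside the gene as drawn in GENCODE 44, where PLXNA1 starts further upstream, at position 126982693.
PLXND1: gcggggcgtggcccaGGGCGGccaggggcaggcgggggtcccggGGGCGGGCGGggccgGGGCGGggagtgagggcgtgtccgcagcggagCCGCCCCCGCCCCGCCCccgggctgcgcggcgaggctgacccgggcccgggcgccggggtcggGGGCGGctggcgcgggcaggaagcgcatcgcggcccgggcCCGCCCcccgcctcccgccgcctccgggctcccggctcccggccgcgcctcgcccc
PLXNC1: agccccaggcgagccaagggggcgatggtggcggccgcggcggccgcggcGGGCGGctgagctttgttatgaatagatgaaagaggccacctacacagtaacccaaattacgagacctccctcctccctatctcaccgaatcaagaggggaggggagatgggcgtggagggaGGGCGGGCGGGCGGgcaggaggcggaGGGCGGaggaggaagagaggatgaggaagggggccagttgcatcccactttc
PLXNA1: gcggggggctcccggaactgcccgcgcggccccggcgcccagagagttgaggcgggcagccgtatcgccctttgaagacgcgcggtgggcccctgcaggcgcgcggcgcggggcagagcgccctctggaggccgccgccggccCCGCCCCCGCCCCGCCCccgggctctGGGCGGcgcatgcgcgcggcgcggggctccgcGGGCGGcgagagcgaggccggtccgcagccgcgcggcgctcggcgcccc
SEMA7A: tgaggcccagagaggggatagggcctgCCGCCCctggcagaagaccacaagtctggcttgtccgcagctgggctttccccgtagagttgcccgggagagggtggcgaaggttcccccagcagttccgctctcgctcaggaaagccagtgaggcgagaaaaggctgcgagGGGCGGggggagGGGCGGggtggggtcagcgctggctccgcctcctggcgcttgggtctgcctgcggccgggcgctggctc

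The 4 windows held 9, 5, 5 and 3 GC boxes in that order, overlapping ones counted, and their G and C content was 88.8, 65.2, 84.4 and 70.0%. None held 5 A or 5 T bases in a row. Over the 48 RefSeq windows of the 27 members that have an entry, 62.5% held a GC box and 20.8% a run of AAAAA or TTTTT, against 53.7% and 31.7% of 22197 windows of protein-coding genes of the same length. TATAAA or TTTATA was in 2.08% of the member windows and 9.01% of all, TGACTCA or TGAGTCA in 0 and 3.45%, and CACGTG in 6.25 and 7.37%. The median G and C content was 64.8% in the member windows and 62.0% in all. Several windows of a gene overlap, so these shares are descriptions. NRP1, SEMA3A, SEMA6A and SEMA6B have no entry.

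In untreated cells the plexins made up most of the family's RNA in Molm-14, and less of it in HL-60. In TPM, transcript levels scaled for gene length that allow levels of different genes to be compared, the 9 plexins summed to 243 and 253 in the 2 Molm-14 controls and to 67.7 and 66.4 in the HL-60 controls. The 20 semaphorins summed to 58.2 and 62.0 TPM in Molm-14, with 56.1 and 51.2 TPM in HL-60, close to each other. The neuropilins were low in both, at 6.83 and 6.2 TPM in untreated Molm-14 cells against 3.46 and 3.15 TPM in HL-60.

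PLXND1, the plexin that also takes SEMA3E without a neuropilin, led in both lines with 169 ± 6.94 TPM (SD, n = 2) in Molm-14 and a mean of 51.2 TPM in HL-60. PLXNB2, the receptor of SEMA4C, came next in Molm-14 at 53.2 ± 1.39 TPM, followed by SEMA4C itself at 17.3 ± 1.05. SEMA4D (CD100) and SEMA7A (CD108), both at 14.3 TPM, overlapped in the Molm-14 controls and so had no order, and PLXNA1 followed at 12.1 ± 0.219 TPM. In HL-60 SEMA4A and SEMA4D held the next places after PLXND1, with means of 20.0 and 19.5 TPM, ahead of PLXNB2 at 7.78 and PLXNA1 at 5.83. The plot of TPM in the untreated cells shows these levels for every member. In CPM, not scaled for gene length, PLXND1 led by less, at 303 against 235 for PLXNB2 in Molm-14 controls. At the high dose in Molm-14 PLXNB2 was above it, at 389 against 349 CPM. In HL-60 controls PLXND1 had 68.5 CPM and SEMA4D 56.1. The TPM lead of PLXND1 and the plexin sums rest on transcript lengths assigned by RSEM, which were not examined.

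**Figure D1:**
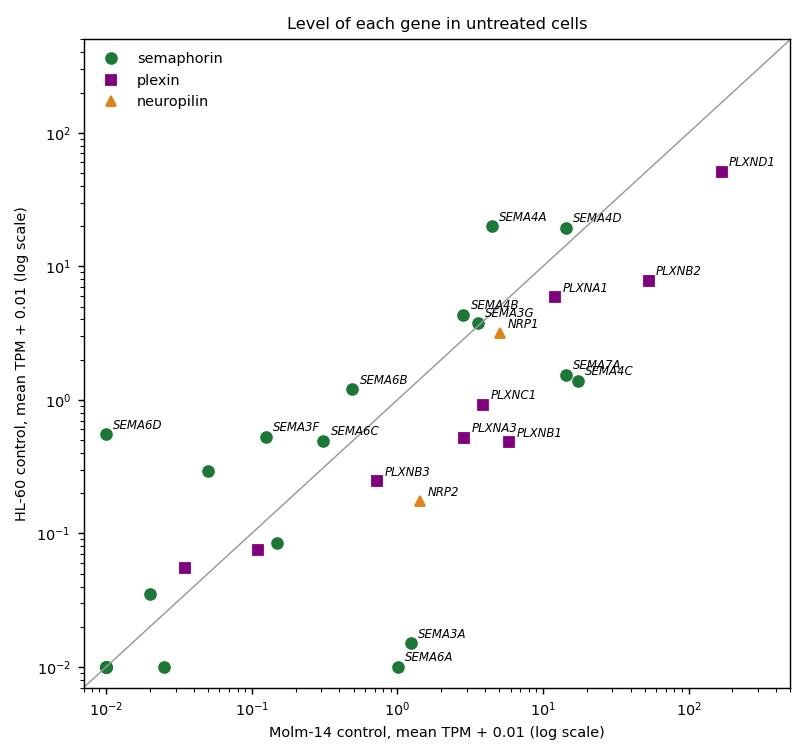
Mean TPM of each of the 31 genes in the 2 untreated Molm-14 libraries (x axis) and the 2 untreated HL-60 libraries (y axis), both with 0.01 added and on log scales, with a line of equal level and names for genes above 0.4 TPM in either line. PLXND1 stands highest in both, the 7 named plexins lie below the line of equal level, and SEMA4A, SEMA6D and SEMA3F lie above it.

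The 6 members that were too low to be tested reached no more than 7 counts in any library: SEMA3C, SEMA3D, SEMA3E, SEMA4G, SEMA5A and SEMA5B. SEMA4G also shares 22.9% of its exon bases with MRPL43 on the other strand. The other 25 were tested in edgeR's quasi-likelihood fit of all 12 libraries, with p-values adjusted over 13422 genes; a gene passes here when that value is under 0.05, and it is called when it also changed more than 2-fold.

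Between the untreated lines, no plexin was called higher in HL-60 and 7 of 9 were called lower. Over all members 5 were called higher and 12 lower in HL-60 (of all genes, 16.5% and 20.6%). PLXNB1, a receptor of SEMA4D, had a log2 difference of −3.88 ± 0.156 (SE, edgeR adjusted p = 1.5e-14), and PLXNB2 one of −2.97 ± 0.0405 (edgeR adjusted p = 1.22e-21). NRP2, the co-receptor of SEMA3F, had 130 and 114 counts in untreated Molm-14 cells and 4 and 5 in HL-60, so the groups did not overlap. The 5 members called higher in HL-60 were all semaphorins: SEMA3F, SEMA4A, SEMA4F, SEMA6B and SEMA6D. SEMA4A, which has roles in T cell priming, was 2.08 ± 0.0658 higher on the log2 scale (edgeR adjusted p = 3.33e-16).

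Several semaphorins were at or near 0 counts in 1 of the lines. SEMA6D, a ligand of PLXNA1, gave 0 counts in all 6 Molm-14 libraries and 27 to 92 in HL-60, at least 18.5-fold higher in the HL-60 controls when Molm-14 is set at a floor of 3 counts per library. SEMA6A, a ligand of PLXNA2 and PLXNA4, was the reverse, with 0 counts in all 6 HL-60 libraries and at least 32.2-fold more in the Molm-14 controls. SEMA3A, the classical NRP1 ligand, had 127 and 147 counts in untreated Molm-14 cells and 3 and 0 in HL-60, a ratio of 135 with a 95% exact interval from 45.7 to 659. SEMA4F had 34 and 52 counts in untreated HL-60 cells and 0 and 1 in Molm-14, a ratio of 58.2 (10.2 to 2320). These intervals cover counting error only.

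At the high dose the family rose broadly in HL-60 and in part in Molm-14. In HL-60 at 500 pM DSA, 14 of the 25 tested members were called higher and 0 lower, where 16.5% of all genes were called higher and 2.05% lower. At the adjusted p alone 19 members passed upward (35.8% of all genes) and 0 downward (37.8%); with DESeq2 and with limma-voom the counts were also 19 and 0, and 0 members were lower at an unadjusted p under 0.05. In Molm-14 at 100 pM DSA, 3 members were called higher and 0 lower (3.29% and 0.73% of all genes), while 11 passed upward and 2 downward (22.9% and 21.9%). With a fold over 2, 0 members were lower in Molm-14 at an unadjusted p under 0.05 or in DESeq2, and 1 (SEMA3F) in limma-voom. The median log2 fold change over the tested members was 1.27 in HL-60 and 0.29 in Molm-14, against medians of 0 and 0.0038 over all genes. Part of the members entered the test through the group where they are high. These counts and medians, and the counts of called members below, therefore describe tested members and not the whole family. SEMA3B and PLXNA2 had their highest counts in high-dose HL-60 (14 and 21) and high-dose Molm-14 (29 and 34). Their calls there are partly set by the filter that decides which members are tested.

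**Figure D2:**
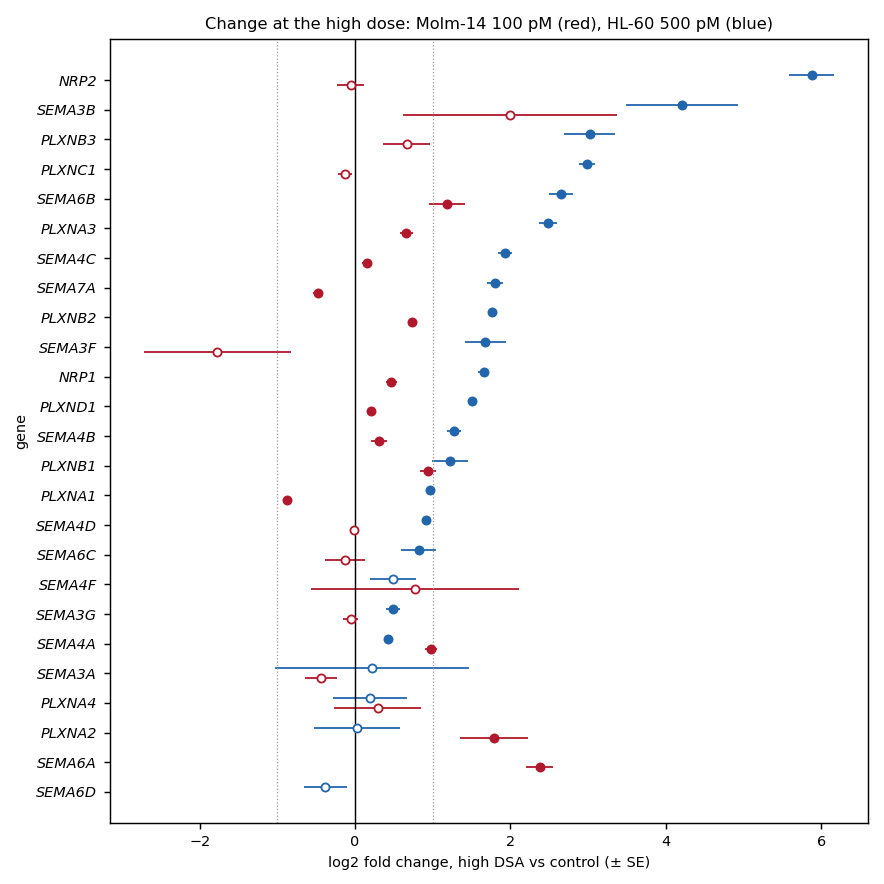
Log2 fold change at the high dose against control, with its standard error, for the tested members in Molm-14 (red) and HL-60 (blue); filled points passed at an edgeR adjusted p of 0.05, dotted lines mark a fold of 2, and the line whose counts are all 0 is left out for SEMA6A and SEMA6D. All 19 filled HL-60 points lie to the right of 0, while in Molm-14 PLXNA1 and SEMA7A lie to its left.

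Among the plexins, 6 of 9 were called higher in HL-60 at the high dose (16.5% of all genes) and 1 of 9, PLXNA2, in Molm-14 (3.29%). PLXND1 held 2530 and 4076 counts in untreated HL-60 cells, 3188 and 4681 with the low dose, then 4186 and 6314 with the high one (68.5 ± 0.925, 155 ± 2.59 and 195 ± 1.41 CPM, SD, n = 2). It held 9574 and 10154, 10359 and 10963, and 12762 and 11425 counts in the same groups of Molm-14. The HL-60 groups were fully apart and rose 2.84-fold by the high dose (log2 1.51 ± 0.035 SE, edgeR adjusted p = 4.78e-17), and the rise in Molm-14 was 1.15-fold (log2 0.20 ± 0.0317, edgeR adjusted p = 3.79e-05). Even so, treated HL-60 cells stayed below untreated Molm-14 cells, at 195 against 303 CPM.

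PLXNB2 rose in both lines. Its counts were 7527 and 7755, 8341 and 8679, and 14296 and 12675 in Molm-14 controls, low and high dose, and 1106 and 1782, 1310 and 1904, and 2178 and 3328 in HL-60. The high dose changed it 1.66-fold in Molm-14 (log2 0.73 ± 0.0344, edgeR adjusted p = 5.03e-12) and 3.41-fold in HL-60 (log2 1.77 ± 0.0423, edgeR adjusted p = 7.16e-17), with no overlap between control and high dose in either line. Its relative PLXNB1 had 430 and 503, 515 and 601, and 955 and 952 counts in Molm-14 against 27 and 67, 36 and 51, and 62 and 60 in HL-60. PLXNB1 rose in both, 1.92-fold in Molm-14 (log2 0.94 ± 0.101, edgeR adjusted p = 3.81e-07) and 2.34-fold in HL-60 (log2 1.22 ± 0.231, edgeR adjusted p = 0.000103), and the difference between the lines did not pass (0.28 ± 0.251, edgeR adjusted p = 0.362). Over the alternatives tried the HL-60 value of PLXNB1 ran from log2 0.92 to 1.64, at the lowest under a fold of 2.

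PLXNB3, the third B plexin, had 29 and 36, 46 and 43, and 62 and 48 counts in Molm-14, and in HL-60 16 and 15, 15 and 29, and 74 and 66. The rise in HL-60 was 8.12-fold (log2 3.02 ± 0.328, edgeR adjusted p = 1.13e-07); in Molm-14 the value was log2 0.66 ± 0.301 (edgeR adjusted p = 0.082). The gene shares 20.4% of its exon bases with SRPK3 on the same strand, so its counts are uncertain. SRPK3 gave 217 to 322 counts in the 6 Molm-14 libraries and at most 1 count in any HL-60 library. With both genes summed the HL-60 value was 2.98 and that of Molm-14 turned to −0.08 (edgeR adjusted p = 0.716), a check added after the data were seen.

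PLXNC1, the receptor of SEMA7A, had the largest log2 difference in change between the lines at the high doses among the plexins in the fit of all 12 libraries. It had 147 and 283 counts in untreated HL-60 cells, 266 and 341 with the low dose, then 748 and 1148 with the high one (4.37 ± 0.608, 12.1 ± 0.962 and 35.1 ± 0.178 CPM, SD, n = 2), without overlap between any of the 3 groups. Molm-14 held 685 and 749, 686 and 824, and 650 and 743 counts, which overlapped. The high dose raised PLXNC1 7.90-fold in HL-60 (log2 2.98 ± 0.104, edgeR adjusted p = 1.14e-14), to a level above that of untreated Molm-14 (22.0 CPM), while the Molm-14 value was −0.13 ± 0.0898 (edgeR adjusted p = 0.266). CEP83, which touches 1.76% of its exon bases on the other strand, fell by 0.41 on the log2 scale in HL-60 (edgeR adjusted p = 9.84e-06).

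The A plexins, receptors of class 3 semaphorins with neuropilins and of class 6 semaphorins directly, did not move as a block. PLXNA3 had 341 and 385, 430 and 468, and 646 and 577 counts in Molm-14, and in HL-60 61 and 96, 77 and 94, and 206 and 284. It rose 1.58-fold in Molm-14 (log2 0.66 ± 0.0846, edgeR adjusted p = 3.61e-06) and 5.58-fold in HL-60 (log2 2.48 ± 0.12, edgeR adjusted p = 1.17e-12). PLXNA2 was a low gene, with 7 and 10, 5 and 6, and 29 and 34 counts in Molm-14 and 1 to 16 in HL-60. Its 3.45-fold rise at the high dose in Molm-14 passed (log2 1.79 ± 0.433, edgeR adjusted p = 0.00237), and HL-60 gave 0.02 ± 0.553 (edgeR adjusted p = 0.98). PLXNA4 had 4 to 17 counts in every library and passed in neither line.

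PLXNA1, named here after its values were seen because it passed in both lines with opposite signs, had 3026 and 3162 counts in untreated Molm-14 cells, 2993 and 3251 with the low dose, then 1899 and 1701 with the high one. In HL-60 the counts were 1506 and 2370, 1087 and 1483, and 1708 and 2537, which in CPM are 40.3 ± 0.125, 51.1 ± 1.8 and 78.9 ± 1.43 (SD, n = 2). It fell 1.83-fold in Molm-14 (log2 −0.87 ± 0.0407, edgeR adjusted p = 4e-12) and rose 1.96-fold in HL-60 (log2 0.97 ± 0.0419, edgeR adjusted p = 2.43e-13). The order of the lines was thereby turned round, from 95.1 against 40.3 CPM untreated to 51.9 against 78.9 CPM at the high doses.

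**Figure D3:**
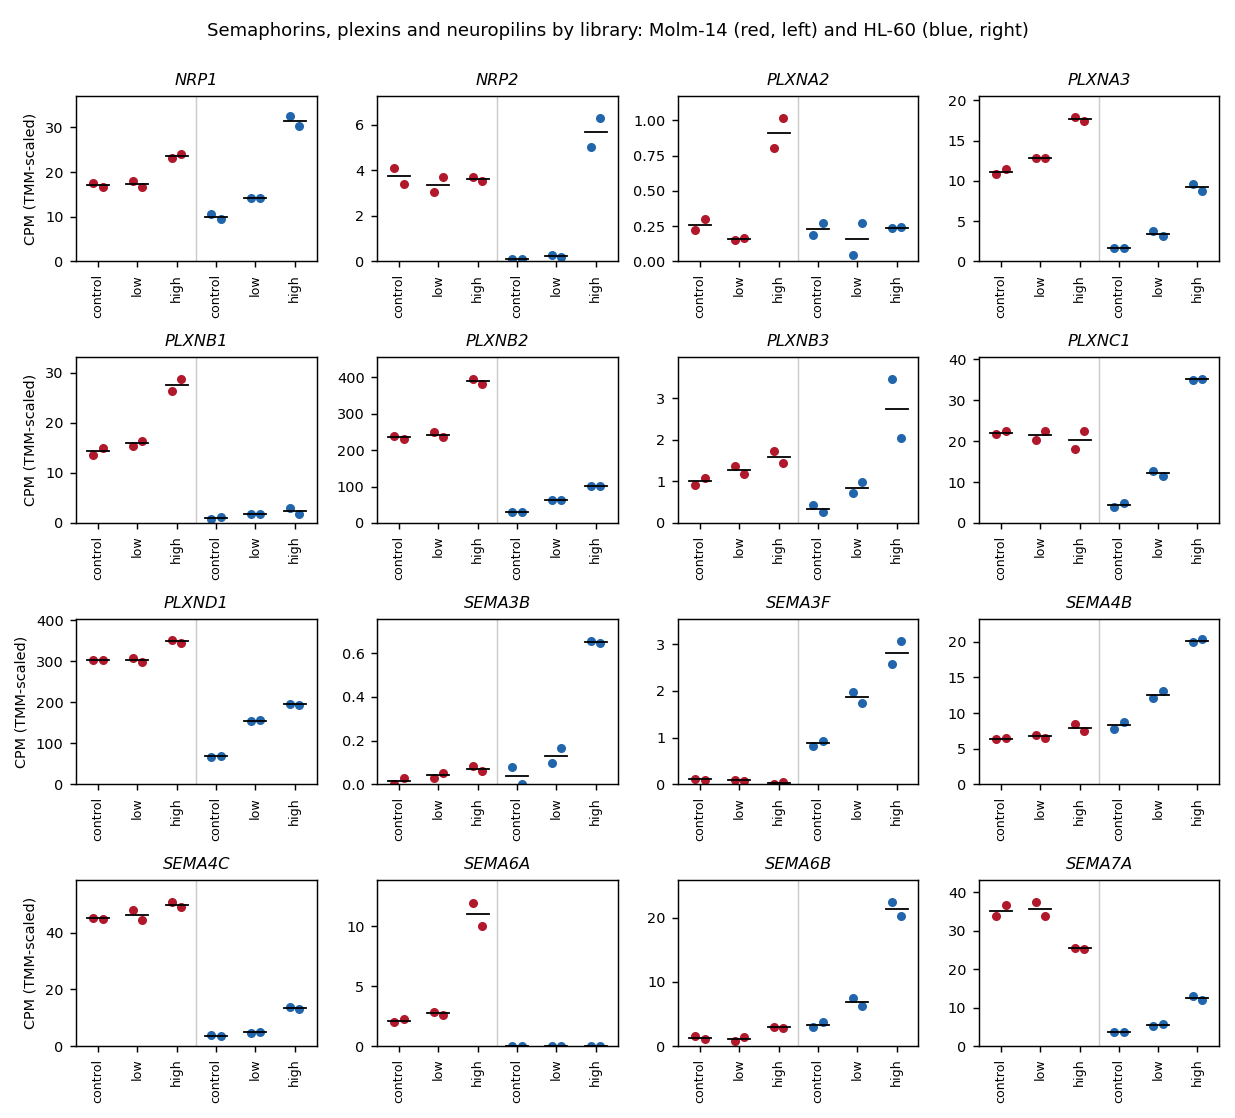
TMM-scaled CPM of 16 members in each library (points; linear axes from 0) and the mean of the 2 libraries (bars), with Molm-14 control, low and high dose on the left in red and HL-60 on the right in blue. NRP2, PLXNC1 and PLXNA3 climb in HL-60 from 0.096, 4.37 and 1.63 to 5.65, 35.1 and 9.18 CPM, SEMA6A appears only on the Molm-14 side, and SEMA7A falls in Molm-14 from 35.2 to 25.4 CPM.

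Both neuropilins rose in HL-60 at the high dose. NRP2 had 4 and 5 counts in untreated HL-60 cells, 6 and 6 with the low dose, then 107 and 205 with the high one (0.096 ± 0.0159, 0.245 ± 0.0619 and 5.65 ± 0.911 CPM, SD, n = 2). It rose 58.7-fold against control (log2 5.88 ± 0.287, edgeR adjusted p = 1.33e-12), from a base of few counts, and the value ran from 5.68 to 6.06 over the alternatives tried. Most of that rise on the log2 scale came between 112.7 and 500 pM, where NRP2 changed by log2 4.56 ± 0.287 (edgeR adjusted p = 2.63e-10), and the low dose did not pass (log2 1.31 ± 0.582, edgeR adjusted p = 0.0681). In Molm-14 its counts were 130 and 114, 102 and 135, and 133 and 117, with control and high dose overlapping (log2 −0.06 ± 0.171, edgeR adjusted p = 0.828).

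NRP1, the co-receptor of SEMA3A and VEGFA, had 390 and 565 counts in untreated HL-60 cells, 294 and 420 with the low dose, then 696 and 987 with the high one, or 10.0 ± 0.617, 14.1 ± 0.0392 and 31.5 ± 1.6 CPM (SD, n = 2). In Molm-14 the counts were 555 and 557, 605 and 608, and 837 and 799. It rose in both, 3.15-fold in HL-60 (log2 1.65 ± 0.0704, edgeR adjusted p = 1.99e-13) and 1.38-fold in Molm-14 (log2 0.47 ± 0.0689, edgeR adjusted p = 1.96e-05).

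Of the secreted class 3 semaphorins, SEMA3B and SEMA3F were called higher in HL-60 and none of the class was called in Molm-14. SEMA3F, which acts through NRP2, had 31 and 55 counts in untreated HL-60 cells, 41 and 52 with the low dose, then 55 and 100 with the high one, a 3.19-fold rise (log2 1.67 ± 0.262, edgeR adjusted p = 1.24e-05). Molm-14 held 0 to 4 counts of it, 7 in the controls together and 2 at the high dose, a ratio of 3.73 with a 95% exact interval of 0.71 to 36.8. SEMA3B had 3 and 0 counts in untreated HL-60 cells, 2 and 5 with the low dose, then 14 and 21 with the high one, a ratio of 20.8 with an interval of 6.56 to 106 (edgeR adjusted p = 3.41e-05), and 0 to 3 counts in Molm-14. SEMA3G, with 362 to 737 counts per library, passed in HL-60 at both doses (log2 0.49 ± 0.0857 at the high dose, edgeR adjusted p = 4.75e-05). SEMA3A gave log2 −0.44 ± 0.206 in Molm-14 at the high dose (edgeR adjusted p = 0.0938) and held 0 to 3 counts in HL-60.

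The fitted fold of SEMA3B depends on a single control library: it was 2.95 on the log2 scale without HL-60 control replicate 2, which had 0 counts, and 7.45 without replicate 1. It passed both ways.

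Class 4 semaphorins, which signal through B plexins and PLXND1 and on lymphocytes through CD72, were the most abundant ligands. SEMA4C had 1430 and 1504, 1610 and 1637, and 1838 and 1628 counts in Molm-14, and in HL-60 141 and 199, 95 and 150, and 297 and 427. It rose 3.80-fold in HL-60 (log2 1.92 ± 0.0908, edgeR adjusted p = 8.01e-13), and most of that came after the low dose, at which it was 1.37-fold (edgeR adjusted p = 0.00292, but 0.0505 without HL-60 control replicate 2 and 0.0743 without low-dose replicate 2). The Molm-14 value of 0.15 ± 0.0534 (edgeR adjusted p = 0.0302) missed the threshold whenever a Molm-14 control or high-dose library was left out (edgeR adjusted p of 0.0525 to 0.189) and with DESeq2 (DESeq2 adjusted p = 0.182). SEMA4B had 200 and 218, 234 and 238, and 304 and 247 counts in Molm-14, and in HL-60 291 and 518, 251 and 390, and 426 and 664, where it rose 2.42-fold (log2 1.27 ± 0.0877, edgeR adjusted p = 1.83e-10). Its Molm-14 value was 0.31 ± 0.104 (edgeR adjusted p = 0.0226), and the pass was lost without either Molm-14 control or without high-dose replicate 1 (0.0669 to 0.219) and with DESeq2 (DESeq2 adjusted p = 0.106).

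SEMA4D and SEMA4A, the leading ligands of untreated HL-60 cells, changed less than 2-fold. SEMA4D passed in HL-60 (1.88-fold, log2 0.91 ± 0.0467, edgeR adjusted p = 2.52e-12) and gave −0.02 ± 0.0527 in Molm-14 (edgeR adjusted p = 0.86). SEMA4A changed more in Molm-14, 1.97-fold (log2 0.98 ± 0.074, edgeR adjusted p = 4.01e-09), than in HL-60, 1.34-fold (log2 0.43 ± 0.0529, edgeR adjusted p = 6.77e-07), with a tested difference of −0.55 ± 0.0914 for SEMA4A, HL-60 minus Molm-14 (edgeR adjusted p = 4.43e-05). SEMA4F did not pass at the high dose in either line against control.

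Each line had its own leading class 6 semaphorin. SEMA6A, with 63 and 75 counts in untreated Molm-14 cells, 96 and 95 with the low dose, then 433 and 332 with the high one, rose 5.19-fold (log2 2.37 ± 0.168, edgeR adjusted p = 1.31e-08) and was called in Molm-14; in HL-60 it stayed at 0 counts at every dose. Its antisense RNA SEMA6A-AS1 held 27 to 48 counts in Molm-14, from 0.89 ± 0.0518 CPM in controls to 1.02 CPM at the high dose. SEMA6B, a ligand of PLXNA4, had 49 and 35, 28 and 53, and 109 and 94 counts in Molm-14, and in HL-60 110 and 219, 155 and 184, and 479 and 660. It was called in both lines, 2.26-fold in Molm-14 (log2 1.18 ± 0.232, edgeR adjusted p = 0.000393) and 6.29-fold in HL-60 (log2 2.65 ± 0.151, edgeR adjusted p = 1.23e-11). Without Molm-14 control replicate 2 the Molm-14 value of SEMA6B was 0.92, under a fold of 2, and that of PLXNB1 was 1.02. SEMA6C passed in HL-60 at 1.77-fold (edgeR adjusted p = 0.00294), and SEMA6D gave −0.38 ± 0.278 there (edgeR adjusted p = 0.225).

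SEMA7A, the membrane-linked ligand of PLXNC1 and of integrins with the ITGB1 chain, moved in opposite directions. Its counts in Molm-14 were 1070 and 1226 in controls, 1259 and 1236 with the low dose, then 925 and 837 with the high one, and in HL-60 132 and 210, 106 and 167, and 277 and 389. Control and high dose did not overlap in either line. It fell 1.39-fold in Molm-14 (log2 −0.47 ± 0.0653, edgeR adjusted p = 9.08e-06) and rose 3.48-fold in HL-60 (log2 1.80 ± 0.0998, edgeR adjusted p = 8.04e-12). ITGB1 passed in HL-60 at log2 0.36 ± 0.0338 (edgeR adjusted p = 1.52e-08).

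The low doses, 11.1 pM in Molm-14 and 112.7 pM in HL-60, differed in concentration, so their counts stand side by side. Each equals, after rounding, the half-maximal inhibitory concentration (IC50) that the study reports for its line. That value came from a longer viability assay. In Molm-14 at 11.1 pM, 0 members were called or passed in either direction; 0.00745% and 0.0149% of all genes were called higher and lower, and 0.969% and 0.238% passed. At an unadjusted p under 0.05, 2 members were higher (PLXNA3 and SEMA4A) and 1 was lower (PLXNA1), and DESeq2 and limma-voom also passed 0. In HL-60 at 112.7 pM, 6 members were called higher and 0 lower (5.57% and 0.291% of all genes), and 16 passed upward (24.2%) and 0 downward (27.4%); 0 were lower at an unadjusted p under 0.05 or in DESeq2 or limma-voom. The 6 were 5 plexins and SEMA3F: PLXNC1 (log2 1.44 ± 0.123), PLXNB3 (1.40 ± 0.398), PLXND1 (1.18 ± 0.0355), PLXNB2 (1.08 ± 0.0446), PLXNA3 (1.06 ± 0.147) and SEMA3F (1.06 ± 0.279). SEMA6B sat just under a fold of 2 (log2 0.999 ± 0.17, edgeR adjusted p = 7.74e-05). Over the alternatives tried PLXNA3 ran from log2 0.95 to 1.19 and SEMA3F from 0.97 to 1.15, so both came under a fold of 2. The count of 6 ran from 4 to 8. PLXNB3 no longer passed without HL-60 control replicate 2 or low-dose replicate 2, with edgeR adjusted p = 0.0947 and 0.112.

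Raising the dose added to most of the HL-60 changes. Between 112.7 and 500 pM, 9 members were called higher and 0 lower in HL-60 (8.15% and 0.723% of all genes), and 15 passed upward and 1 downward (25.9% and 26.8%). PLXND1 had most of its change at the lower dose, log2 1.18 of 1.51, with a further 0.33 ± 0.0343 (edgeR adjusted p = 2.49e-07). SEMA4C had most at the higher dose, with 1.47 ± 0.0983 between the doses (edgeR adjusted p = 5.92e-10). SEMA4A and SEMA3G did not pass between the doses (0.00 ± 0.0544 and −0.11 ± 0.0878, edgeR adjusted p = 0.977 and 0.317). SEMA6D was the member that passed downward (−0.74 ± 0.288, edgeR adjusted p = 0.041), and that pass was lost when any of 5 HL-60 libraries was left out, all but low-dose replicate 2 (edgeR adjusted p of 0.0527 to 0.251). SEMA3B and SEMA4F passed upward (edgeR adjusted p = 0.0071 and 0.0214), not without HL-60 low-dose replicate 1 (0.0559 and 0.0807), and SEMA4F also not without low-dose replicate 2 or high-dose replicate 1 (0.105 and 0.127). SEMA4F went from 0.897 CPM in the HL-60 controls to 0.632 at the low dose and 1.28 at the high dose. Its rise between the doses thus added to no rise at the low dose. In DESeq2 13 members passed upward and 0 downward between the HL-60 doses. SEMA3B, SEMA4F and SEMA6D did not pass there (DESeq2 adjusted p = 0.0972, 0.182 and 0.193). SEMA6D also did not pass with total counts alone (edgeR adjusted p = 0.0796), nor SEMA4F without a filter on low counts (edgeR adjusted p = 0.0514). In Molm-14 between 11.1 and 100 pM, 3 members were called higher and 0 lower (2.26% and 0.618%), PLXNA2, SEMA6A and SEMA6B. The comparisons of both doses share their control libraries.

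**Figure D4:**
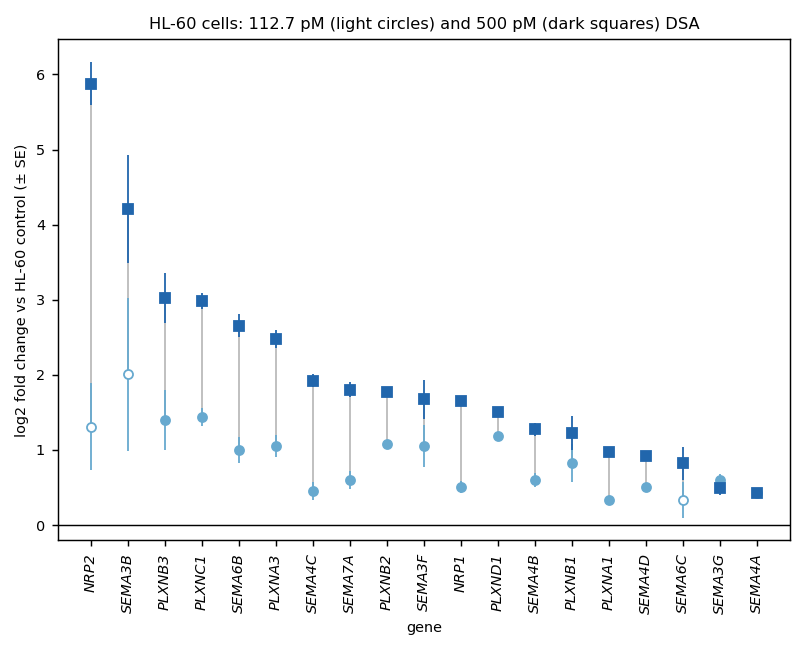
Log2 fold change against the HL-60 controls, with standard errors, at 112.7 pM (light circles, filled where the edgeR adjusted p was under 0.05) and 500 pM DSA (dark squares) for the 19 members that passed at 500 pM. NRP2 climbs from 1.31 to 5.88, PLXND1 goes from 1.18 to 1.51, and the SEMA4A circle lies behind its square at 0.42.

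The change in HL-60 minus the change in Molm-14 was tested itself, as an interaction term. At the high doses this signed difference was positive for 12 members and negative for 1, by a factor over 2 (10.1% and 2.21% of all genes). The dose was 500 pM in HL-60 and 100 pM in Molm-14, so line and dose cannot be told apart in this comparison. Among the positive differences on the log2 scale were those of NRP2 (5.93 ± 0.356, edgeR adjusted p = 9.85e-11), SEMA3F (3.45 ± 0.981, edgeR adjusted p = 0.00581), PLXNC1 (3.11 ± 0.139, edgeR adjusted p = 1.66e-12) and SEMA7A (2.27 ± 0.119, edgeR adjusted p = 1.6e-11). That of SEMA3F leans on 2 counts in high-dose Molm-14 and ran from 2.47 to 6.58 with 1 or the other of those libraries left out. The member with a negative difference was PLXNA2 (−1.76 ± 0.704, edgeR adjusted p = 0.0407), which no longer passed when any Molm-14 library, HL-60 control replicate 2 or either high-dose HL-60 library was left out (edgeR adjusted p of 0.0502 to 0.215).

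The closest doses in concentration were 112.7 pM in HL-60 and 100 pM in Molm-14. Relative to the IC50 they were not equal. The reported IC50 of HL-60 is 112.7 pM, and that of Molm-14 is near 11.1 pM. Line and this inequality cannot be told apart. At these doses the signed difference was positive for 4 members and negative for 1, by a factor over 2 (2.66% and 1.18% of all genes). PLXNC1 differed by log2 1.57 ± 0.153 (edgeR adjusted p = 2.57e-07), PLXNA1 by 1.21 ± 0.0601 (edgeR adjusted p = 4.18e-11), SEMA7A by 1.07 ± 0.137 (edgeR adjusted p = 6.3e-06) and SEMA3F by 2.83 ± 0.984 (edgeR adjusted p = 0.0299). PLXND1 came near a factor of 2 (0.98 ± 0.0475, edgeR adjusted p = 3.14e-11). PLXNA2 differed the other way, by −2.21 ± 0.738 (edgeR adjusted p = 0.0241), on 1 and 8 counts in HL-60. In DESeq2 SEMA3F did not pass (DESeq2 adjusted p = 0.0574) and PLXNA2 was given no adjusted p. The SEMA3F and PLXNA2 values were each lost with certain libraries left out: for SEMA3F either Molm-14 control, Molm-14 high-dose replicate 1, HL-60 control replicate 1 or HL-60 low-dose replicate 1 (edgeR adjusted p of 0.0501 to 0.176), for PLXNA2 Molm-14 control replicate 1, Molm-14 high-dose replicate 2, HL-60 control replicate 2 or HL-60 low-dose replicate 1 (0.0775 to 0.153). NRP1 gave 0.04 ± 0.105 (edgeR adjusted p = 0.825), SEMA6B −0.18 ± 0.29 (edgeR adjusted p = 0.683) and NRP2 1.37 ± 0.606 (edgeR adjusted p = 0.0857), none of which passed at these doses.

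The other genes of the pathway were read from 4 lists chosen with earlier results of these data known; at the adjusted p alone, 35.8% of all genes passed upward and 37.8% downward in HL-60 at the high dose, and 22.9% and 21.9% in Molm-14. Of the co-receptors and other receptors, 10 of 14 were tested, and 9 passed upward and 0 downward in HL-60 at the high dose (median log2 1.68). In Molm-14 the counts were 3 and 1 (median −0.045), the upward one near the share of all genes and the downward one below it. TYROBP, the adaptor that couples TREM2 to PLXNA1, rose in both, from 580 and 591 to 1627 and 1483 counts in Molm-14 (log2 1.32 ± 0.0525, edgeR adjusted p = 4.54e-13) and from 1345 and 2247 to 2188 and 3322 in HL-60 (log2 1.46 ± 0.0437, edgeR adjusted p = 1.29e-15). TREM2 itself went from 36 and 43 to 218 and 231 counts in Molm-14 (log2 2.42 ± 0.191, edgeR adjusted p = 7.02e-09). CD72, the lymphocyte receptor of SEMA4D, had 23 and 29 counts in untreated HL-60 cells against 125 and 135 with the high dose (log2 3.17 ± 0.288, edgeR adjusted p = 9.46e-09). L1CAM, a partner of NRP1, went from 11 and 8 to 26 and 21 counts in Molm-14 (log2 1.20 ± 0.404, edgeR adjusted p = 0.021). FLT4, a receptor of VEGFC that pairs with NRP2, fell in Molm-14 (log2 −0.52 ± 0.132, edgeR adjusted p = 0.00339) and rose in HL-60 (log2 0.75 ± 0.077, edgeR adjusted p = 5.14e-08).

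Of the 7 growth factors that bind neuropilins 4 were tested; all 4 passed upward in HL-60 (median log2 0.59), and 1 passed upward and 1 downward in Molm-14 (median 0.04), where that is close to the shares of all genes. VEGFA had 8226 and 8577 counts in untreated Molm-14 cells against 5595 and 4888 at the high dose, and fell by 0.77 ± 0.0361 on the log2 scale (edgeR adjusted p = 4.1e-12). In HL-60 it rose by 0.86 ± 0.0386 (edgeR adjusted p = 3.91e-13), and the lines differed by 1.64 ± 0.0529 (edgeR adjusted p = 2e-14). TGFB1 passed upward in both lines, by 0.24 ± 0.0574 and 0.29 ± 0.0565 (edgeR adjusted p = 0.00207 and 0.000133). VEGFB and HGF passed upward in HL-60 (0.40 ± 0.0734 and 0.78 ± 0.33, edgeR adjusted p = 8.55e-05 and 0.0409), with −0.16 ± 0.0912 and 0.59 ± 0.624 in Molm-14 (edgeR adjusted p = 0.182 and 0.475).

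Among the intracellular effectors, 34 of 35 were tested; 20 passed upward and 8 downward in HL-60 (median log2 0.35) and 12 and 1 in Molm-14 (median 0.10). MICAL1, the plexin-bound enzyme that oxidises actin, rose in HL-60 from 378 and 595 to 833 and 1243 counts (log2 1.93 ± 0.063, edgeR adjusted p = 4.7e-15). FYN, a kinase that acts downstream of A plexins, had 1244 and 1264 counts in untreated Molm-14 cells against 741 and 682 at the high dose, the list's 1 fall in that line (log2 −0.91 ± 0.0612, edgeR adjusted p = 7.95e-10), and rose in HL-60 (log2 1.59 ± 0.0749, edgeR adjusted p = 8.02e-13). LIMK1, the cofilin kinase, rose in HL-60 by 1.11 ± 0.05 (edgeR adjusted p = 4.26e-13), and FES rose in both lines by 0.46 ± 0.0379 and 0.79 ± 0.0385 (edgeR adjusted p = 1.39e-08 and 1.36e-12). PAK1 and SH3BP1 rose in Molm-14 by 0.49 ± 0.0428 and 0.49 ± 0.0469 (edgeR adjusted p = 3.07e-08 and 8.19e-08). The 8 of 34 that fell in HL-60, a smaller share than the 37.8% of all genes, were FARP2, RAC1, RHOA, RAP1B, GSK3B, PAK2, ROCK1 and ROCK2, among them the central GTPases and their kinases, with log2 changes from −0.16 to −0.47.

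The 6 proteases that process or shed semaphorins and plexins were all tested, and 4 passed upward in HL-60 (median log2 0.68) and 2 in Molm-14 (median 0.05), with 0 downward in both; 2 of 6 is near the share of all genes in Molm-14. FURIN, which cleaves class 3 semaphorin and B plexin precursors, rose by 0.25 ± 0.0428 in Molm-14 and 0.69 ± 0.0435 in HL-60 (edgeR adjusted p = 0.000104 and 5.12e-11). ADAM10 passed in Molm-14 (0.22 ± 0.0558, edgeR adjusted p = 0.00307). In HL-60 MMP14, which sheds SEMA4D, had 50 and 76 counts untreated against 68 and 105 with the high dose (log2 1.29 ± 0.134, edgeR adjusted p = 5.92e-08), PCSK6 rose by 0.67 ± 0.0864 (edgeR adjusted p = 1.24e-06) and ADAM17 by 0.18 ± 0.0517 (edgeR adjusted p = 0.00362). In Molm-14 PCSK6 and ADAM17 gave −0.26 ± 0.159 and 0.13 ± 0.0534 (edgeR adjusted p = 0.199 and 0.0567).

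In TPM the whole family summed to 308 and 321 in untreated Molm-14 cells against 406 and 410 with the high dose, and to 127 and 121 in the HL-60 controls, 219 and 221 with the low dose, then 316 and 308 with the high one. Most of that sum was plexin RNA, at the high dose 334 and 338 TPM in Molm-14, with 196 and 199 TPM in HL-60. The number of members with a mean above 1 TPM was 16 and 15 in Molm-14 control and high dose, and 11 and 17 in HL-60.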

How the data were processed

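RNA from Molm-14 and HL-60 cells was sequenced in 12 libraries, 2 for each of 6 groups named by the labels. The authors trimmed reads with Trim Galore 0.60, aligned them with STAR 2.7 and quantified genes with RSEM 1.31 against hg38 and GENCODE 31, per the labels and the study's methods; a strand setting was not given in the sources used here. The deposited files hold RSEM expected counts, estimated counts per gene that need not be whole, and the deposited TPM, transcript levels scaled for library size and gene length. Gene names, types and coordinates were taken from GENCODE 44 on the same assembly.

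Expected counts were rounded. Protein-coding genes of level 1 or 2 that passed edgeR's filterByExpr were kept (13422), scaled by TMM and fitted in edgeR 4.0.16 (R 4.3.3) by quasi-likelihood with 1 mean per group over all 12 libraries; SE is the log2 fold change divided by the square root of F, and p-values were Benjamini-Hochberg adjusted. CPM are TMM-scaled, and "fold" is the fitted value. TPM served to rank genes. TPM levels and sums were also set side by side between lines and doses, as deposited and without TMM scaling. DESeq2 1.42.0, limma-voom (limma 3.58.1), other scalings and filters, a replicate block and leaving out each library were alternatives. The study used limma-voom; edgeR was taken because the files hold counts. The fitting code was tested on simulated data.

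Totals ranged from 21177424 to 63927449 (median 35957896). A gene with few counts, under about 10, has wide counting error at this depth. Replicate pairs differed by more than counting noise (chi-square per gene of 2.23 to 3.81), so none was counted once only. Members called at the high dose with a mean of at least 0.5 CPM in a group are given with the count of every library, and up to 4 genes per pathway list with the smallest p in each high-dose comparison are named. The members and lists were chosen with earlier results of these data known.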

Additional observations from a re-analysis of the deposited data

Results flagged for a closer look

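For 13 members the change at the high dose differed between the lines by a tested interaction (edgeR adjusted p under 0.05, factor over 2), which is what marks them here. On the log2 scale, HL-60 minus Molm-14, the neuropilins differed by 1.19 (NRP1) and 5.93 (NRP2). The plexins differed by 1.84 (PLXNA1), −1.76 (PLXNA2), 1.82 (PLXNA3), 1.04 (PLXNB2), 2.36 (PLXNB3), 3.11 (PLXNC1) and 1.31 (PLXND1). The semaphorins differed by 3.45 (SEMA3F), 1.78 (SEMA4C), 1.48 (SEMA6B) and 2.27 (SEMA7A). PLXNA1 and SEMA7A passed with opposite signs in the lines; the other 11 did not. The doses compared were 500 and 100 pM, and at 112.7 against 100 pM the difference passed with a factor over 2 for PLXNA1, PLXNA2, PLXNC1, SEMA3F and SEMA7A.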

How the results depend on the processing

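Of the comparisons' counts, 516 values under the alternatives lay within 1.5 times the reported count and 30 did not. The 30 mostly concern counts of 0 or 1. In Molm-14 at the high dose, limma-voom called 1 member lower, leaving out single libraries gave 0 to 1 (and 2 to 4 at the adjusted p alone, both upper values without high-dose replicate 2), and listed pathway genes passing downward numbered 6 with no filter on low counts, 7 with only the compared groups fitted and 2 to 6 with a library left out. In HL-60 listed genes passing downward were 5 with total counts alone, a scaling that shifts the median of all genes by 0.176 (log2). Between the HL-60 doses, members called lower ran from 0 to 1 with a library left out. The 1 member that changed more in Molm-14, PLXNA2, became 0 at the high doses with DESeq2, with total counts alone, without a filter, with a minimum mean of 50 counts or with all gene types, and 0 to 1 with a library left out; at the near-equal doses it became 0 with DESeq2 or a mean of at least 50 counts and 0 to 1 with a library left out. Members higher in untreated HL-60 were 2 with a mean of at least 50 counts. For single members, 2902 values kept direction and side of the threshold, 62 lost it, 20 gained it and 10 changed sign; none of the 10 had passed. The sign changes in Molm-14 at the high dose were those of SEMA4D with total counts alone (0.0176), of PLXNB3 summed with SRPK3 (−0.0814, added after seeing the data) and, with a library left out, those of NRP2 (−0.1891 to 0.0797), PLXNC1 (−0.2925 to 0.0228), SEMA3G (−0.2186 to 0.0779), SEMA4D (−0.058 to 0.029) and SEMA6C (−0.3458 to 0.0688). In HL-60 they were, with a library left out, those of PLXNA2 (−0.1748 to 0.3488) and PLXNA4 (−0.3691 to 0.7787). Where not evident from the alternative itself, the cause was not tested. The totals of 516 and 2902 include fits without a library that is in neither group compared. Such fits can change little, so the totals are no measure of stability. Outside both high-dose comparisons only single members that passed or came near the threshold were entered. Replicate numbers do not pair the samples (correlations of deviations −0.0687 to 0.0665); with a replicate block the members called higher were 14 in HL-60 and 3 in Molm-14 at the high dose, as without it. Genes under about 10 counts are limited by depth.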
